A study of Arabidopsis thaliana with 4 samples.

Results

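The root stele is the central cylinder of the root, made of the xylem, the phloem and the pericycle that surrounds them. Its living cells load nitrate, phosphate, potassium and metals into the xylem for the shoot. Specialised terpenes and triterpenes are made in roots from gene clusters, in which a cyclase that folds the carbon skeleton lies beside cytochromes P450 that oxidise it. PEN1, the arabidiol synthase, and its neighbour CYP705A1, which cleaves arabidiol, are known for their expression in the root stele, and jasmonate is known to induce this pathway.

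Root tips of wild-type Arabidopsis (Col-0) were measured with a multiome assay of single nuclei, which counts RNA molecules and cuts in accessible chromatin of the same nucleus. The libraries were 2 of plants under osmotic stress, imposed with sorbitol in the medium, and 2 of plants grown under control conditions. All libraries carry the same genotype, with no transgene named. The study describes the 2 libraries of a group as biological replicates, so a library and not a nucleus was taken as the replicate.

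Nuclei were chosen by 9 marker genes from an earlier clustering of these nuclei: TPS13, CYP71A20, SLAH1, PEN1, DAR3, AT2G36650, AT5G62360, PSK2 and AT1G32970. A nucleus met the rule with RNA counts over 1000 and under 25000, at least 3 of the 9 markers at 1 or more counts, and marker counts of at least 0.1% of its RNA counts. The rule took 1280 of 23532 nuclei, here called rule nuclei, and left 22252 other nuclei. Stress replicates 1 and 2 held 142 and 129 rule nuclei, and control replicates 1 and 2 held 85 and 924. The rule nuclei carried 558643 and 554045 RNA counts in the stress replicates and 274391 and 3359408 in the control replicates. Their median depth was 3154 and 3369 RNA counts under stress and 2584 and 2605 in the controls, while other nuclei had medians of 3696 and 3656 under stress and 3906 and 3410 in the controls. Between 26 and 81 barcodes were shared by a pair of libraries, and at most 1 of them met the rule in both.

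Control replicate 2 stood apart before any comparison of rule nuclei. It held 924 of the 1280 rule nuclei. Among its other nuclei PSK2 reached 359 CPM (RNA counts scaled to the total of the library sum), whereas the other nuclei of the remaining libraries had 40.2 to 79.5 CPM. JAZ10, a repressor of jasmonate signalling that jasmonate itself induces, was likewise at 263 CPM in its other nuclei, against 24.7 to 45.7 CPM elsewhere. At least 1 marker was counted in 72.4% of its nuclei, against 35.4% and 36.2% in the stress replicates and 25.7% in control replicate 1. Counts of calls are therefore also given without it, and so are the named changes that then move by over 1.5 times in fold. Control replicate 1 differed in the other readout, with a median of 625.5 peak counts in its other nuclei, against 3530 to 4042 in the other libraries. Its rule nuclei had a median of 5674 peak counts, against 2907 to 3781 in the rule nuclei of the other libraries. Of its 3213 nuclei, 1480 had over 1000 and under 100000 peak counts.

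The share of rule nuclei was lower under stress in the libraries measured. It was 1.85% (95% exact interval 1.56 to 2.17) and 1.98% (1.66 to 2.35) of nuclei in stress replicates 1 and 2, against 2.65% (2.12 to 3.26) and 15.1% (14.2 to 16) in control replicates 1 and 2. The groups did not overlap, but the control replicates lay farther from each other than control replicate 1 lay from the stress replicates. The log2 ratio of the mean shares was -2.21, and without control replicate 2 it was -0.47. A two-sided exact permutation test over the libraries gave p = 0.333, the smallest that 2 against 2 libraries allow. With 2 markers in place of 3 the groups overlapped, with an exact permutation p of 1. The share also moves with the level of the markers and with depth, so fewer nuclei of this kind and lower marker RNA per nucleus cannot be told apart. Intervals cover counting error only.

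**Figure D1:**
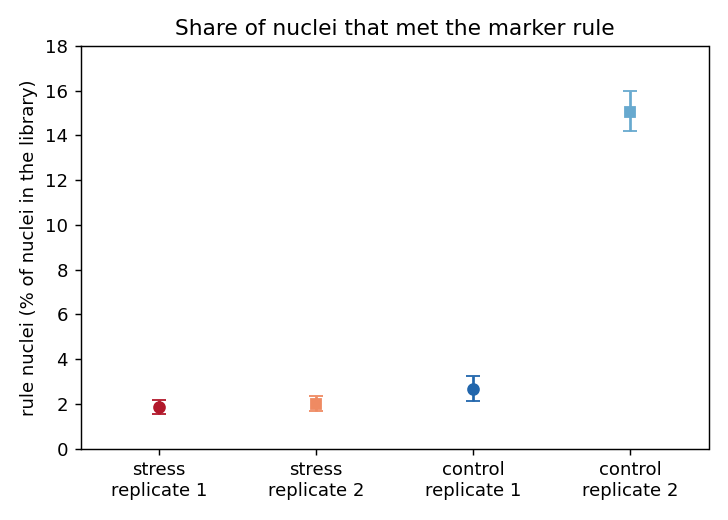
Share of nuclei that met the marker rule in each library, in percent of its nuclei within the RNA limits, with 95% exact intervals for counting error. Control replicate 2 sits at 15.1%, and the other libraries lie between 1.85% and 2.65%.

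The markers themselves chose the nuclei, so their levels in rule nuclei are given as a description. TPS13 (AT4G13300, chromosome 4, 7742871 to 7746394, TAIR10), a root terpene synthase that forms a sesquiterpene skeleton, had 39.4 and 34.3 CPM in stress replicates 1 and 2, against 441 and 253 CPM in control replicates 1 and 2. CYP71A20, the cytochrome P450 gene next to it, had 93.1 and 84.8 CPM in stress replicates 1 and 2, against 189.5 and 170.3 CPM in control replicates 1 and 2. TPS13 has a close relative, TPS12, beside it, so reads from the pair may have been lost or divided. The TPS13 locus also overlaps AT4G13290. TPS13 and CYP71A20 were both lower in rule nuclei of every stress library than of every control library. In whole libraries TPS13 had 1.22 and 1.74 CPM in stress replicates 1 and 2, against 9.68 and 31.6 CPM in control replicates 1 and 2. Of all TPS13 counts, 47.8% and 34.5% lay in rule nuclei under stress, against 71.2% and 89.9% in the controls. These parts also move with the share of rule nuclei in each library.

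PEN1 (AT4G15340, chromosome 4, 8754440 to 8760600) had 641 and 516 CPM in stress replicates 1 and 2, against 1079 and 835 CPM in control replicates 1 and 2. SLAH1, a subunit of the anion channels that load chloride into the xylem, had 48.3 and 59.6 CPM in stress replicates 1 and 2, against 153 and 139.6 CPM in control replicates 1 and 2. DAR3, of the DA1 family of LIM-domain proteins, had 50.1 and 46.9 CPM in stress replicates 1 and 2, against 193 and 118 CPM in control replicates 1 and 2. These levels again lay lower in both stress libraries. PSK2, the precursor of the growth peptide phytosulfokine, had 1049 and 971 CPM in stress replicates 1 and 2, against 1239 and 2193 CPM in control replicates 1 and 2. AT2G36650 had 433 and 417 CPM in stress replicates 1 and 2, against 612 and 448 CPM in control replicates 1 and 2. For both genes the 2 stress replicates lay below the 2 control replicates, PSK2 with the wider control range. AT1G32970, a subtilase gene, had 46.5 and 21.7 CPM in stress replicates 1 and 2, against 98.4 and 79.2 CPM in control replicates 1 and 2. AT5G62360, of the pectin methylesterase inhibitor family, had 19.7 and 30.7 CPM in stress replicates 1 and 2, against 0 and 121 CPM in control replicates 1 and 2. The groups overlapped only for AT5G62360, whose 0 of 274391 counts in control replicate 1 allows up to 10.9 CPM. The loci of AT2G36650 and AT1G32970 overlap other annotated genes, so their reads are uncertain.

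**Figure D2:**
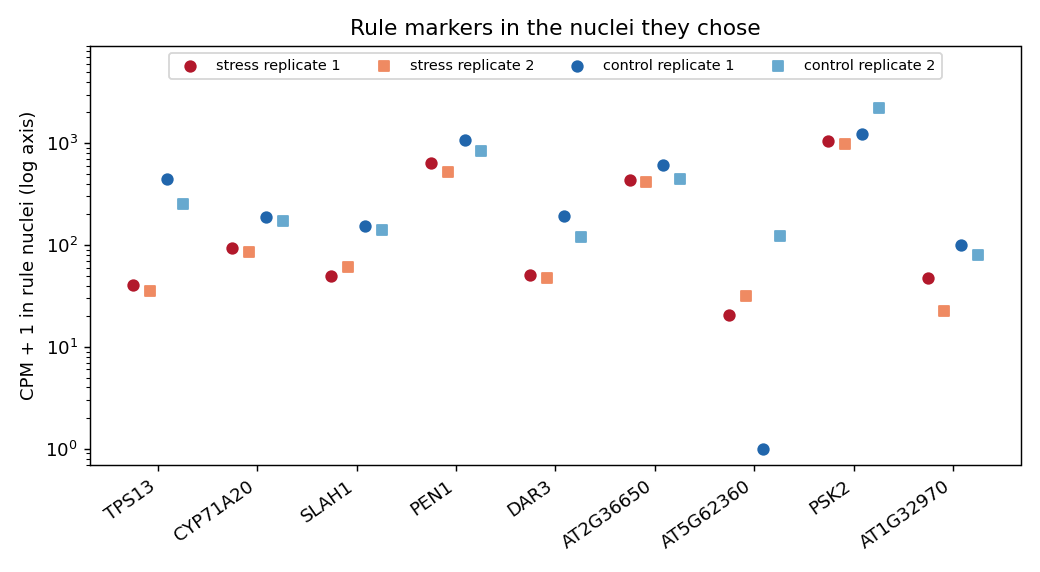
Level of the 9 rule markers in rule nuclei, as CPM + 1 on a log axis, with 1 point per library. TPS13 lies at 39.4 and 34.3 CPM in the stress replicates and at 441 and 253 CPM in the control replicates, and AT5G62360 had no count in control replicate 1.

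The markers met in different combinations in the libraries. TPS13 or CYP71A20 was counted in 26.8% and 34.1% of rule nuclei in stress replicates 1 and 2, against 67.1% and 52.8% in control replicates 1 and 2. Conversely, 42.3% and 33.3% of rule nuclei under stress held only PEN1, PSK2 and AT2G36650 among the markers, against 5.88% and 9.63% in the controls. PSK2 made up 43.3% and 44.5% of the marker counts in the stress replicates and 30.9% and 50.3% in the control replicates. Exactly 3 markers were seen in 68.3% and 62.8% of rule nuclei under stress and in 50.6% and 39.8% in the controls. Rule nuclei under stress thus lay closer to the threshold of the rule. At the threshold, rule nuclei with 3 markers had a median of 0.225% and 0.199% of their RNA counts from markers in the stress replicates and 0.281% and 0.359% in the controls. Just outside it, nuclei with 2 markers and enough marker counts numbered 213 and 162 in the stress replicates and 52 and 562 in the controls, with medians of 0.166% and 0.168%, against 0.1998% and 0.220%.

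The name stele was set against lists of genes for root cell types. These nuclei were chosen by genes of the same RNA, so the comparison with other nuclei is a description with no test. The Stele list summed to 473 and 370.0 CPM in stress replicates 1 and 2, against 309.8 and 255 CPM in control replicates 1 and 2 in rule nuclei. In other nuclei the same list summed to 160.2 and 163 CPM in stress replicates 1 and 2, against 67.3 and 97.1 CPM in control replicates 1 and 2. It was higher in rule nuclei of all 4 libraries, and 4 of its 9 genes were higher in every library while 0 were lower in every library. The defining marker WOL, a cytokinin receptor of the stele, had 64.4, 54.1, 21.9 and 22 CPM in rule nuclei of stress replicates 1 and 2 and control replicates 1 and 2, against 39.7, 42.6, 26.5 and 23.1 CPM in the other nuclei of the same libraries. WOL was thus not higher in rule nuclei of the controls, and LOG5, an enzyme that activates cytokinin, had 0 CPM in rule nuclei of 3 libraries and 2.98 CPM in control replicate 2. The list of pericycle and xylem-pole pericycle genes summed to 5504 and 5671 CPM in rule nuclei under stress and 4946 and 4082 CPM in the controls. In other nuclei it summed to 2998 and 3015 CPM under stress and 2540 and 2239 CPM in the controls. Of its 24 genes, 9 were higher and 6 were lower in rule nuclei of every library. NRT1.5, a transport gene described below, made up most of the difference, and AT5G43180 a further part. The list is therefore not independent of the transport genes.

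The xylem, phloem and procambium lists were also higher in rule nuclei of all 4 libraries. The xylem list summed to 340.1 and 409.7 CPM in rule nuclei under stress and 211.4 and 204.8 CPM in the controls. In other nuclei it summed to 227 and 232.8 CPM under stress and 136.8 and 133.4 CPM in the controls. The phloem list was 1.31 to 2.17 times as high in rule nuclei, and the procambium list 1.31 to 3.24 times. Lists of tissues outside the stele were for the most part not higher. Lists of the cortex, the non-hair epidermis (atrichoblasts), the columella and root cap, and dividing cells summed lower in rule nuclei of every library. The dividing-cell list was at 89.5 and 57.8 CPM in rule nuclei under stress and at 25.5 and 57.5 CPM in the controls, against 115 and 119 CPM and 129 and 118 CPM in other nuclei. The endodermis list summed to 1470 and 1846 CPM in rule nuclei under stress and 671 and 1633 CPM in the controls, against 1717 and 1787 CPM and 854 and 1187 CPM in other nuclei. It was therefore higher in rule nuclei in 2 of the 4 libraries, with the widest gap in control replicate 2. The hair cell list was lower in rule nuclei in 3 libraries and at 1600.3 CPM in rule nuclei of stress replicate 1, against 1520 CPM in its other nuclei. The part of these cell types in the results below was not tested.

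**Figure D3:**
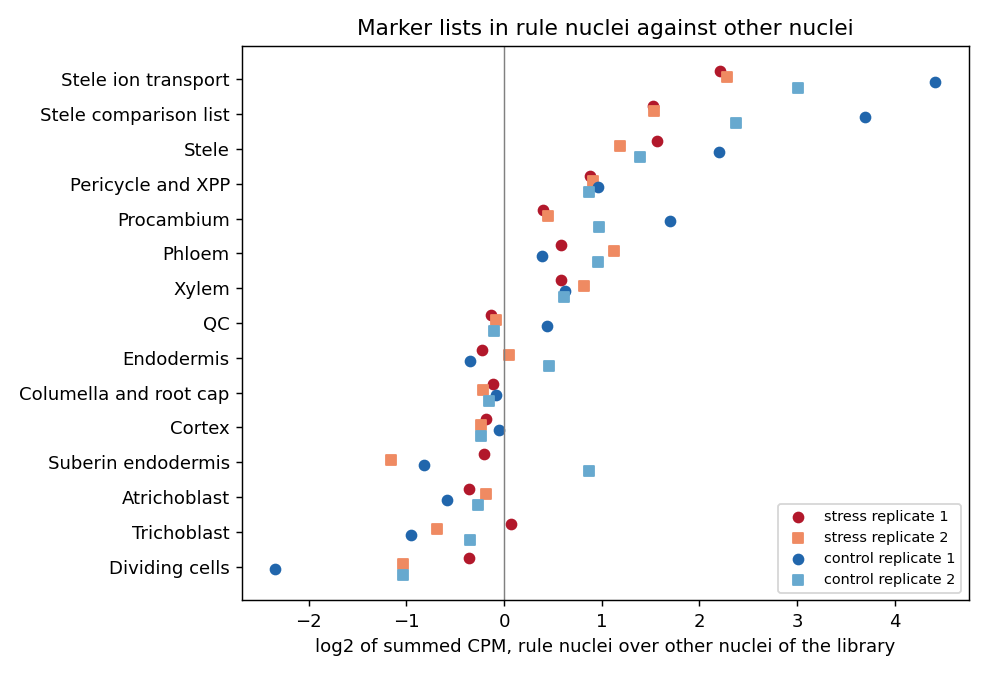
Summed CPM of cell type lists and of the Stele ion transport list, as the log2 ratio of rule nuclei over other nuclei of the same library, with 1 point per library. The vascular lists lie to the right of 0 in all 4 libraries, and the dividing-cell list lies to the left in all 4.

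Genes of transport into the xylem were high in rule nuclei. Of the 12 genes of the Stele ion transport list that are not markers, 11 were higher in rule nuclei of all 4 libraries, against 2482 of the 8746 genes with at least 20 CPM in rule nuclei, and 10 were more than 2-fold higher in all 4. NRT1.5 (AT1G32450, chromosome 1, 11715147 to 11719988), which loads nitrate into the xylem, had 2509.7, 2857, 2431 and 1253 CPM in rule nuclei of stress replicates 1 and 2 and control replicates 1 and 2, against 516, 522, 90 and 120.5 CPM in the other nuclei of the same libraries. HMA4, a zinc pump of the xylem parenchyma, had 757, 754, 937 and 425 CPM in rule nuclei of stress replicates 1 and 2 and control replicates 1 and 2, against 116, 123, 33.1 and 48.6 CPM in the other nuclei of the same libraries. PHO1, which exports phosphate to the xylem, had 362, 449, 827 and 277 CPM in rule nuclei of stress replicates 1 and 2 and control replicates 1 and 2, against 67.5, 77, 31.5 and 28.7 CPM in the other nuclei of the same libraries. All of NRT1.5, HMA4 and PHO1 were lowest in rule nuclei of control replicate 2. SKOR (AT3G02850), the channel that releases potassium into the xylem, had 69.8, 48.7, 306 and 147 CPM in rule nuclei of stress replicates 1 and 2 and control replicates 1 and 2, against 10.1, 10.4, 5.78 and 10.9 CPM in the other nuclei of the same libraries. SLAH3, an anion channel that works with SLAH1, had 234, 195, 332 and 118 CPM in rule nuclei of stress replicates 1 and 2 and control replicates 1 and 2, against 85.8, 89.2, 27.6 and 41.3 CPM in the other nuclei of the same libraries. The exception was CCC1, a cation-chloride cotransporter, with 35.8, 27.1, 14.6 and 25 CPM in rule nuclei of stress replicates 1 and 2 and control replicates 1 and 2, against 26.8, 28.4, 30.1 and 27.1 CPM in the other nuclei of the same libraries.

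Rule nuclei held a large part of this RNA in the controls and a small part under stress. The size of the class enters these shares. Rule nuclei were 1.85% and 1.98% of nuclei in stress replicates 1 and 2, against 2.65% and 15.1% in control replicates 1 and 2. Of all RNA counts they held 558643 of 37717096 and 554045 of 31654663 under stress. In the controls they held 274391 of 17567594 and 3359408 of 29971515. Of all NRT1.5 counts, 6.82% and 8.89% came from rule nuclei in stress replicates 1 and 2, against 30% and 56.8% in control replicates 1 and 2. For SKOR the shares were 9.44% and 7.67% under stress, against 45.7% and 63% in the controls. For PHO1 they were 7.45% and 9.42% under stress, against 29.4% and 54.9% in the controls. The other nuclei differed as well: a second list of stele genes, WOL, LOG5, NRT1.5, PHO1, SKOR, HKT1, TIP2;3, LBD14 and XTH20, used with the same thresholds, picked 20.6% and 22.5% of them under stress, against 3.23% and 3.57% in the controls. That list holds 4 of the transport genes and so is not independent of them. Among rule nuclei it picked 62.7% and 62.8% under stress, against 57.6% and 35.1% in the controls. Rule nuclei of control replicate 2 thus met this stele list least often. Nuclei outside the rule that passed it are called stele-list nuclei, 1554 and 1435 under stress and 101 and 186 in the controls. The Stele ion transport list, SLAH1 included, summed there to 2055 and 2085 CPM under stress and 2124 and 1890 CPM in the controls. In rule nuclei it summed to 4266 and 4630 CPM under stress and 5135 and 2490 CPM in the controls. That gap was narrower than against all other nuclei. SKOR had 31.3 and 33.4 CPM in stele-list nuclei under stress and 92.6 and 136 CPM in the controls.

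Rule nuclei were not uniform in this respect. In rule nuclei with TPS13 or CYP71A20, SKOR had 122 and 57.2 CPM in stress replicates 1 and 2, against 358 and 199 CPM in control replicates 1 and 2. In rule nuclei with neither, it had 48.1 and 44.8 CPM in stress replicates 1 and 2, against 195 and 82.2 CPM in control replicates 1 and 2. SKOR was higher beside the terpene genes in all 4 libraries. HMA4 followed the same order, with 900.0 and 1002 CPM in stress replicates 1 and 2, against 1117 and 534 CPM in control replicates 1 and 2 beside TPS13 or CYP71A20. Without them HMA4 had 698 and 641 CPM in stress replicates 1 and 2, against 550.0 and 289 CPM in control replicates 1 and 2. NRT1.5 did not, since it was higher beside the terpene genes in stress replicate 1 and control replicate 2 and lower in the other libraries. In control replicate 2, the summed level of the 12 transport genes was 1559 CPM in rule nuclei with 3 markers, 2427 CPM with 4 and 3114 CPM with 5 or more. Control replicate 1 did not show that order, with 5600 CPM for 3 markers, 5663 CPM for 4 and 3481 CPM for 5 or more. The numbers of nuclei behind the largest class were 13 and 8 in the stress replicates and 21 and 283 in the control replicates. SKOR, HMA4 and NRT1.5 were chosen here after their values were seen.

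Across all genes with at least 20 CPM in rule nuclei, 2482 of 8746 were higher and 2046 were lower than in other nuclei in all 4 libraries. A set of 83 genes was over 4-fold higher in all 4 libraries with at least 50 CPM. The 20 with the largest mean ratio were of mixed function and included 3 genes of amino acid transporter families. UMAMIT20, an amino acid exporter family member, had 353, 401, 281 and 169 CPM in rule nuclei of stress replicates 1 and 2 and control replicates 1 and 2, against 38.2, 40.6, 9.14 and 16.6 CPM in the other nuclei of the same libraries. UMAMIT29 of the same family had 168, 153, 69.2 and 17.3 CPM in rule nuclei of stress replicates 1 and 2 and control replicates 1 and 2, against 16.9, 19.4, 1.33 and 1.95 CPM in the other nuclei of the same libraries. AAP7, of the amino acid permease family, had 55.5, 19.9, 76.5 and 48.8 CPM in rule nuclei of stress replicates 1 and 2 and control replicates 1 and 2, against 3.53, 3.12, 1.79 and 6.69 CPM in the other nuclei of the same libraries. TPPJ, a trehalose-6-phosphate phosphatase, averaged 3.64 ± 0.91 on the log2 scale over the 4 libraries (SD, n = 4). CYP79B3, which turns tryptophan into the precursor of indole glucosinolates, averaged 3.65 ± 1.33, and the serine carboxypeptidase-like gene scpl31 had the largest mean, 3.91 ± 1.48. SKOR stood in this group at 3.48 ± 1.48 and is not among the 9 markers. The rest were AT2G41480, AT3G62040, AT5G14940, BGAL2, AT2G44130, AT1G31050, MYB48, AT1G49570, TET5, AT5G43180, AT1G09932, AT2G47560 and AT1G26730, with means of 3.43 to 3.72. The median over the 20 genes was 3.55 against all other nuclei and 1.88 against the 3276 stele-list nuclei.

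Stress and control were next compared within rule nuclei, on RNA counts summed per library with the quasi-likelihood test of edgeR and Benjamini-Hochberg adjustment over 9862 genes. At an adjusted p under 0.05, 131 genes (1.33%) were higher and 181 (1.84%) were lower under stress, 3.16% of the genes tested. The groups did not overlap for 45.8% of all genes tested. These calls rest on control replicate 2. Without it 0 of 11278 genes passed, with 1442 at an unadjusted p under 0.05, and control replicate 1 was then the only control library. The 312 calls became 183 with DESeq2, 27 in nuclei chosen without PSK2 and 164 in rule nuclei with TPS13 or CYP71A20.

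The 3 largest rises were those of SWEET3, AT2G37870 and HIS1-3. Every rise named here was also seen in other nuclei, where both stress libraries lay above both controls. There AT4G16260 had 186 and 206 CPM under stress, against 15.3 and 22.5 CPM in the controls. NAS1 had 68.2 and 74.6 CPM there, against 8.04 and 12.2 CPM, and SWEET3 had 5.25 and 6.04 CPM, against 0.06 and 0.04 CPM. SWEET3 (AT5G53190, chromosome 5, 21572143 to 21574329), a sugar transporter, had 53.7 and 56 CPM in stress replicates 1 and 2, against 3.64 and 1.19 CPM in control replicates 1 and 2. Its change was 5.09 ± 0.50 in log2 (± SE over 2 stress and 2 control libraries, adjusted p = 0.00587). Both stress libraries lay far above both controls. SWEET12 (AT5G23660), which exports sucrose for phloem loading, had 69.8 and 46.9 CPM in stress replicates 1 and 2, against 7.29 and 5.06 CPM in control replicates 1 and 2. Its change was 3.34 ± 0.42 in log2 (± SE over 2 stress and 2 control libraries, adjusted p = 0.00886). HIS1-3 (AT2G18050, chromosome 2, 7845923 to 7847031), a linker histone known to be induced by drought, had 68 and 81.2 CPM in stress replicates 1 and 2, against 10.9 and 4.76 CPM in control replicates 1 and 2. HIS1-3 changed by 3.65 ± 0.40 in log2 (± SE over 2 stress and 2 control libraries, adjusted p = 0.00587), again without overlap of the groups. NAS1 (AT5G04950), a nicotianamine synthase that makes a metal chelator, had 80.6 and 52.3 CPM in stress replicates 1 and 2, against 3.64 and 7.74 CPM in control replicates 1 and 2. The gene AT4G16260, for a glucan hydrolase, had 143 and 153 CPM in stress replicates 1 and 2, against 21.9 and 13.7 CPM in control replicates 1 and 2, a change of 3.19 ± 0.32 in log2 (± SE over 2 stress and 2 control libraries, adjusted p = 0.00587). The log2 changes without control replicate 2 of SWEET3, SWEET12, HIS1-3, NAS1 and AT4G16260 were 3.78, 2.92, 2.70, 4.06 and 2.71, in the same direction.

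All named rises were low in the controls, with at most 21.9 CPM for those above and 18.2 CPM for the other 5, AT2G37870 among them. In control replicate 1, SWEET3, NAS1 and AT2G37870 had 1 count each, SWEET12 had 2 and HIS1-3 had 3. Their changes without control replicate 2 rest on these few counts. AT2G37870, of the lipid transfer protein family, had 46.5 and 54.1 CPM in stress replicates 1 and 2, against 3.64 and 1.49 CPM in control replicates 1 and 2, and its rise of 4.72 was 3.66 without control replicate 2. MRN1, the marneral synthase and a cyclase of another triterpene cluster, had 39.4 and 50.5 CPM in stress replicates 1 and 2, against 0 and 4.76 CPM in control replicates 1 and 2. RBCS1A, the small subunit of Rubisco, had 37.6 and 50.5 CPM in stress replicates 1 and 2, against 0 and 5.36 CPM in control replicates 1 and 2. AZI1, of the lipid transfer protein family, had 37.6 and 39.7 CPM in stress replicates 1 and 2, against 0 and 3.87 CPM in control replicates 1 and 2. MRN1, RBCS1A and AZI1 had no count in control replicate 1, which allows up to 10.9 CPM in that library, so no fold is given for them without control replicate 2. AZI1 and RBCS1A have close relatives among which reads may be divided, so their values are uncertain. MYB305 (AT3G24310), a transcription factor on the pericycle list, had 32.2 and 50.5 CPM in stress replicates 1 and 2, against 18.2 and 2.08 CPM in control replicates 1 and 2. Its rise of 3.34 was 1.13 without control replicate 2.

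The 3 largest falls were those of AT1G49570, NAC3 and CYP94B1. In other nuclei the named falls were also lower in both stress libraries, except AT1G49570 and GGPS6, whose groups overlapped there. AT5G39580 had 18.8 and 21.3 CPM in other nuclei under stress, against 37.2 and 167 CPM in control replicates 1 and 2. AT1G49570 (chromosome 1, 18346958 to 18349049), a class III peroxidase, had 12.5 and 12.6 CPM in stress replicates 1 and 2, against 488 and 76.8 CPM in control replicates 1 and 2. The change was -4.39 ± 0.88 in log2 (± SE over 2 stress and 2 control libraries, adjusted p = 0.0353). Control replicate 1 was highest here, and both stress libraries lay below both controls. Without control replicate 1 the change was -2.73, and without control replicate 2 it was -5.29. NAC3 (AT3G15500), a NAC transcription factor, had 5.37 and 1.80 CPM in stress replicates 1 and 2, against 21.9 and 73.5 CPM in control replicates 1 and 2. CYP94B1, which oxidises the active jasmonate conjugate, had 0 and 7.22 CPM in stress replicates 1 and 2, against 18.2 and 55.7 CPM in control replicates 1 and 2. Their changes were -4.09 ± 0.71 for NAC3 and -3.73 ± 0.79 for CYP94B1. PP2-B14, of the phloem protein family, had 8.95 and 5.41 CPM in stress replicates 1 and 2, against 91.1 and 65.5 CPM in control replicates 1 and 2. GulLO5, an oxidase of the gulonolactone family, had 14.3 and 21.7 CPM in stress replicates 1 and 2, against 94.8 and 135 CPM in control replicates 1 and 2. PP2-B14 and GulLO5 showed the least spread between control replicates among the named falls. ASN1, an asparagine synthetase that is induced in the dark and in sugar starvation, had 16.1 and 21.7 CPM in stress replicates 1 and 2, against 43.7 and 170.0 CPM in control replicates 1 and 2. GGPS6, a geranylgeranyl diphosphate synthase of the terpenoid backbone, had 16.1 and 9.02 CPM in stress replicates 1 and 2, against 47.4 and 123 CPM in control replicates 1 and 2, and its locus overlaps 2 other genes, so its reads are uncertain. AT1G22810, an ERF transcription factor gene, fell by 2.93, AT3G48450 fell by 2.81 and the peroxidase gene AT5G39580 fell by 2.77. AT1G22810 and ASN1 also overlap other annotated genes. Leaving out control replicate 2, the changes of GGPS6, AT1G22810, AT3G48450, ASN1 and AT5G39580 were -1.93, -1.40, -1.44, -1.24 and -1.11. NAC3 and CYP94B1 could not be fitted then. All 18 named genes that could be fitted kept their direction, with 0 past the threshold. Leaving out stress replicate 1 or 2 kept 18 and 16 of the 20 past it.

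**Figure D4:**
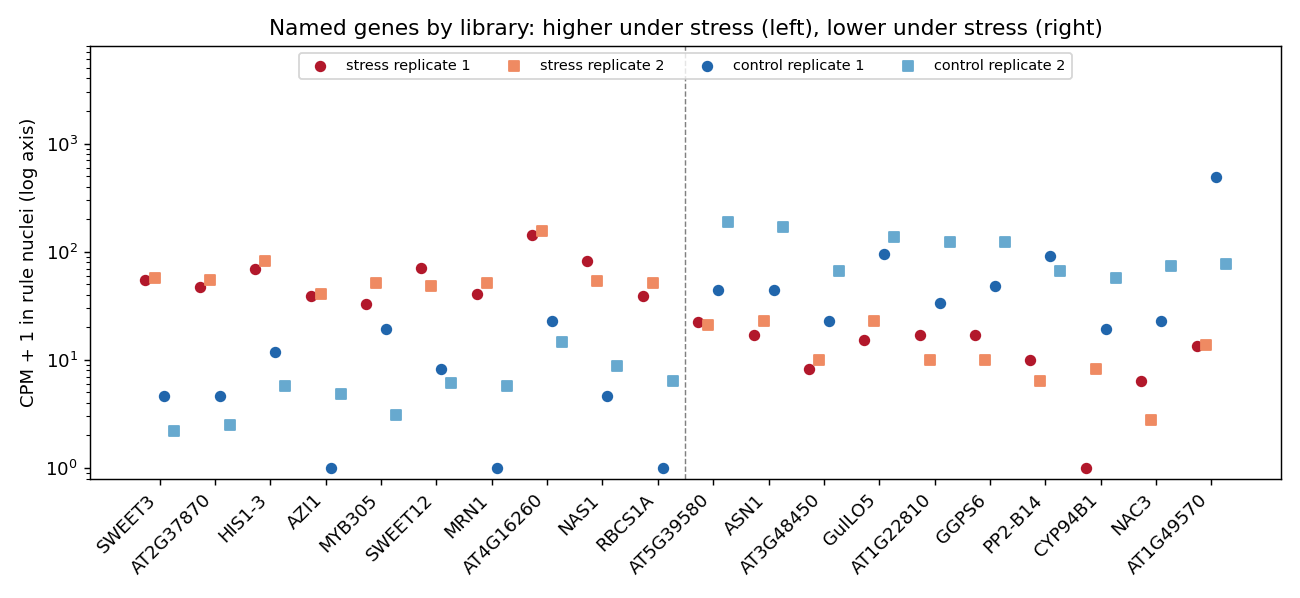
Named genes in rule nuclei, as CPM + 1 on a log axis, with 1 point per library and the rises left of the dashed line. In each case the stress libraries and the control libraries do not overlap, and AZI1, MRN1 and RBCS1A had no count in control replicate 1.

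Within the Stele ion transport list, 10 of the 12 genes that are not markers were tested; 1 rose and 1 fell, against 3.16% called among all genes. SKOR fell, with 69.8 and 48.7 CPM in stress replicates 1 and 2, against 306 and 147 CPM in control replicates 1 and 2. The change was -1.92 ± 0.38 in log2 (± SE over 2 stress and 2 control libraries, adjusted p = 0.0351). HKT1 (AT4G10310), which retrieves sodium from the xylem, rose, with 39.4 and 45.1 CPM in stress replicates 1 and 2, against 18.2 and 8.33 CPM in control replicates 1 and 2. Its change was 2.01 ± 0.42 in log2 (± SE over 2 stress and 2 control libraries, adjusted p = 0.0405), and without control replicate 2 it was 1.16. So the potassium release channel was lower and the sodium carrier higher in rule nuclei of both stress libraries. SKOR kept its direction but did not pass with equal numbers of nuclei, TPS13 or CYP71A20 required, or PSK2 left out. HKT1 had only 5 counts in rule nuclei of control replicate 1, and it did not pass with equal numbers of nuclei. Its change was 2.03 without stress replicate 1 and 1.84 without stress replicate 2. In other nuclei HKT1 rose as well, with 9.69 and 11.5 CPM under stress, against 0.87 and 0.56 CPM in the controls. Its change in rule nuclei minus that in other nuclei was -1.92 (edgeR interaction, adjusted p = 0.190). NRT1.5, PHO1, HMA4 and SLAH3 did not pass the test, with log2 changes of 0.49, -0.46, 0.12 and -0.03. BOR1, a boron exporter, had 84.1 and 61.4 CPM in stress replicates 1 and 2, against 14.6 and 28.9 CPM in control replicates 1 and 2 (adjusted p = 0.0694). The median change of the 10 genes was 0.24, against 0.0023 over all genes.

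The terpenoid genes other than the markers moved in both directions. CYP705A1 (AT4G15330), the arabidiol-cleaving P450 beside PEN1, had 78.8 and 54.1 CPM in stress replicates 1 and 2, against 193 and 145 CPM in control replicates 1 and 2, a change of -1.39 ± 0.30 in log2 (± SE over 2 stress and 2 control libraries, adjusted p = 0.042). AT4G15390, an acyltransferase-family gene of the same chromosomal cluster, had 158 and 139 CPM in stress replicates 1 and 2, against 36.4 and 50.9 CPM in control replicates 1 and 2, a change of 1.57 ± 0.28 in log2 (± SE over 2 stress and 2 control libraries, adjusted p = 0.0278). In this cluster 2 of the 11 genes that are not markers were tested, and 1 rose and 1 fell. AT4G15390 was as high in other nuclei, with 163 and 165 CPM under stress and 41.9 and 44.5 CPM in the controls, while CYP705A1 was higher in rule nuclei of every library. Of the thalianol and marneral clusters, 7 of 8 genes were tested, and only MRN1 passed. THAS1, the thalianol synthase, had 50.1 and 57.8 CPM in stress replicates 1 and 2, against 58.3 and 52.4 CPM in control replicates 1 and 2. The marneral oxidase gene CYP71A16 had 93.1 and 93.9 CPM in stress replicates 1 and 2, against 47.4 and 42.6 CPM in control replicates 1 and 2 (adjusted p = 0.0886). Of 28 terpene synthases apart from TPS13, 3 were tested and 0 passed. AT5G48110 had 172 and 143 CPM in stress replicates 1 and 2, against 135 and 196 CPM in control replicates 1 and 2. None of the 17 tested genes of the mevalonate route to squalene epoxide passed, nor of the 5 tested genes of the plastid isoprenoid route, with median changes of -0.10 and 0.72.

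Apart from the markers, jasmonate response genes were the list with most falls. Of its 15 genes 10 were tested, 3 fell and 0 rose, against 1.84% and 1.33% of all genes, with a median change of -0.80. JAZ10 had 116 and 123 CPM in stress replicates 1 and 2, against 423 and 563 CPM in control replicates 1 and 2, a change of -2.14 ± 0.26 in log2 (± SE over 2 stress and 2 control libraries, adjusted p = 0.00886). OPR3, an enzyme of jasmonate synthesis, had 184 and 211 CPM in stress replicates 1 and 2, against 394 and 683 CPM in control replicates 1 and 2. JAZ5, another repressor of the pathway, had 66.2 and 63.2 CPM in stress replicates 1 and 2, against 128 and 170.0 CPM in control replicates 1 and 2. OPR3 changed by -1.56 ± 0.30 in log2 (± SE over 2 stress and 2 control libraries, adjusted p = 0.0325) and JAZ5 by -1.33 ± 0.28 in log2 (± SE over 2 stress and 2 control libraries, adjusted p = 0.0416). Of the 15 genes, 10 were also higher in rule nuclei than in other nuclei in all 4 libraries. In other nuclei JAZ10 had 24.7 and 26.6 CPM under stress, against 45.7 CPM in control replicate 1 and 263 CPM in control replicate 2. OPR3 had 97.9 and 107 CPM there under stress, against 109 CPM in control replicate 1 and 419 CPM in control replicate 2. AOC1, an allene oxide cyclase gene of the same pathway, had 3.58 and 1.80 CPM in stress replicates 1 and 2, against 10.9 and 112 CPM in control replicates 1 and 2, and control replicate 1 lay far below control replicate 2. None of the 3 falls passed without control replicate 2, with changes of -1.86 for JAZ10, -1.03 for OPR3 and -1.01 for JAZ5, in the same direction. The part of control replicate 2 in these falls was not tested otherwise. JAZ1, LOX3, LOX4 and the transcription factor MYC2 did not pass, with changes of -0.74, -0.55, -0.86 and -0.31.

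In the list of osmotic stress and abscisic acid response genes, 18 of 29 were tested and 1 rose, against 1.33% of all genes. HB-7 (AT2G46680), a homeodomain factor induced by water deficit, had 39.4 and 37.9 CPM in stress replicates 1 and 2, against 7.29 and 6.55 CPM in control replicates 1 and 2, a change of 2.42 ± 0.40 in log2 (± SE over 2 stress and 2 control libraries, adjusted p = 0.02). The median change was 0.28. Among aquaporins 16 of 21 were tested, 1 rose and 1 fell, against 3.16% of all genes called. TIP2;2, a tonoplast water channel, had 1343 and 1169.6 CPM in stress replicates 1 and 2, against 547 and 572 CPM in control replicates 1 and 2. Its relative DELTA-TIP had 109 and 134 CPM in stress replicates 1 and 2, against 244 and 243 CPM in control replicates 1 and 2. Their changes were 1.09 ± 0.22 for TIP2;2 and -1.09 ± 0.25 for DELTA-TIP. AT1G13930 had 512 and 623 CPM in stress replicates 1 and 2, against 313 and 362 CPM in control replicates 1 and 2, a change of 0.66 ± 0.23 in log2 (± SE over 2 stress and 2 control libraries, adjusted p = 0.184), which did not pass. Among the cell type lists, AIL6, a transcription factor of the stem cell niche, fell with 3.58 and 5.41 CPM in stress replicates 1 and 2, against 18.2 and 26.2 CPM in control replicates 1 and 2, and AT5G18840 of the cortex list rose with 77 and 75.8 CPM in stress replicates 1 and 2, against 36.4 and 22.3 CPM in control replicates 1 and 2. No gene of the Stele, xylem, phloem, endodermis or hair cell lists passed, with 3, 5, 3, 20 and 12 tested.

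Whether these changes differed from those of other nuclei was asked with an interaction term, with both sums of each library in 1 edgeR fit. Of 19675 genes, 5 (0.0254%) had a higher and 97 (0.493%) a lower change in rule nuclei, 0.518% of the genes tested. Of the 8 named genes, 4 were more than 2-fold higher in other nuclei under stress, with levels in rule nuclei that did not pass the test. AT3G53980, of the lipid transfer protein family, had 1088, 1226, 2292 and 441 CPM in rule nuclei of stress replicates 1 and 2 and control replicates 1 and 2, against 408, 386, 56.3 and 49.6 CPM in the other nuclei of the same libraries. GSTF2, a glutathione transferase, had 378, 338, 445 and 281 CPM in rule nuclei of stress replicates 1 and 2 and control replicates 1 and 2, against 276, 284, 46.6 and 46.4 CPM in the other nuclei of the same libraries. For both genes the other nuclei lay closer to rule nuclei under stress than in the controls. The locus of GSTF2 overlaps another annotated gene, so its reads are uncertain. ATSBT5.2, a subtilase gene, and AT5G43180 had interaction terms of -2.33 ± 0.33 and -2.27 ± 0.35 (SE). Without control replicate 1 the terms of AT3G53980 and ATSBT5.2 were -1.64 and -1.70, and without control replicate 2 they were -3.57 and -3.23. Of the 12 transport genes that are not markers, all were tested, 3 had a lower change in rule nuclei and 0 a higher one. These were SKOR with -1.92 ± 0.34 (SE; edgeR adjusted p = 2.98e-05), PHO1 with -1.34 ± 0.34 (SE; edgeR adjusted p = 0.0221) and NRT1.5 with -1.54 ± 0.42 (SE; edgeR adjusted p = 0.0454). The levels of NRT1.5 and PHO1 given above lay higher in other nuclei of both stress replicates than of both control replicates, while neither gene passed the test in rule nuclei. Without control replicate 2 the terms of SKOR, PHO1 and NRT1.5 were -2.96, -1.99 and -2.15, and without control replicate 1 they were -1.25, -0.82 and -1.04, all past the threshold. None passed without stress replicate 1 or without stress replicate 2, and with DESeq2 only NRT1.5 passed. Against stele-list nuclei, which were chosen in part by these 3 genes, the terms were 0.19, 0.44 and 0.46 and did not pass. AT1G49570 had the most negative term of the named genes, -3.47 ± 0.44. Of the 20 genes named above for stress against control in rule nuclei, only AT1G49570 had a term that passed. When the other nuclei were only those that passed the stele list, 0 of 12328 genes passed with edgeR, and 635 had an unadjusted p under 0.05. Only 101 and 186 such nuclei made up the control sums, so the 0 calls do not show that no gene differed. With all other nuclei DESeq2 called 33. Without control replicate 2 there were 1172 calls, 570 higher and 602 lower, so the calls no longer lay mostly on the lower side. Without stress replicate 1 or 2 the count was 1 and 0, with 511 and 515 at an unadjusted p under 0.05.

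Chromatin accessibility was not used by the rule and could be tested between rule nuclei and other nuclei of the same libraries. Peaks were merged into 27677 regions, and the 18340 with a peak in all 4 libraries were tested with the library as a term in edgeR. Of these, 700 (3.82%) were more accessible and 651 (3.55%) less accessible in rule nuclei, 7.37% in all. With nuclei limited to over 1000 and under 100000 peak counts, 716 and 655 regions passed. Against the stele-list nuclei, 48 and 150 regions passed. Without control replicate 2 the counts were 214 and 249, and in nuclei chosen without PSK2 they were 69 and 169.

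The largest gain lay beside a terpene synthase gene. The region chr4:10927515-10928427 (TAIR10) lies in no gene, with its centre 1138 bp from the start of AT4G20230, a gene of the terpene synthase family. Its scaled counts (CPM over the regions tested) were 29.3, 38.7, 56.2 and 50.5 in rule nuclei of stress replicates 1 and 2 and control replicates 1 and 2, against 12.5, 12.7, 15.4 and 13.7 in the other nuclei. The gain was 1.67 ± 0.22 on the log2 scale (SE, 4 libraries; edgeR adjusted p = 3.94e-07), and it was 1.15 against stele-list nuclei. All 4 libraries showed it. The RNA of AT4G20230 was low, at 5.37 and 1.80 CPM in rule nuclei under stress and 7.29 and 8.93 CPM in the controls. The region chr1:25380073-25381017, 1328 bp from the start of ARR11, a response regulator of cytokinin signalling, had 95.8, 61.2, 80.5 and 47.5 in rule nuclei of stress replicates 1 and 2 and control replicates 1 and 2, against 20.4, 21.8, 21.2 and 23.7 in the other nuclei. Its gain was 1.58 ± 0.20 on the log2 scale (SE, 4 libraries; edgeR adjusted p = 1.47e-07). The RNA of ARR11 averaged 14.8 CPM in rule nuclei. The region chr2:3514054-3514982 holds the start of ABCC13, an ABC transporter gene, and gained 1.56 ± 0.21 on the log2 scale (SE, 4 libraries; edgeR adjusted p = 4.56e-07). The other 7 of the 10 largest gains ranged from 1.42 to 1.55 and were seen in all 4 libraries. Of the 10, 7 passed against stele-list nuclei as well.

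The 3 largest losses lay on chromosome 2 within a stretch known to hold inserted mitochondrial DNA, between 3244537 and 3346112. They changed by -1.77, -1.76 and -1.72. In the second, other nuclei of control replicate 1 had 415 CPM, against 87.7 to 116 in the other libraries, and rule nuclei had 26.5 to 74.9. Reads of the nuclear insertion and of the mitochondrial genome cannot be told apart there, and their part in these losses was not tested.

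Few of the markers had a region that could be tested. Only PSK2 and DAR3 had one within 2000 bp that was called in all 4 libraries. The region chr2:9736741-9737680 holds the start of PSK2 (9737583, plus strand) and had 64.5, 75.4, 69.3 and 93.9 in rule nuclei of stress replicates 1 and 2 and control replicates 1 and 2, against 43.6, 47.7, 37.1 and 64.3 in the other nuclei. Its gain was 0.61 ± 0.14 on the log2 scale (SE, 4 libraries; edgeR adjusted p = 0.00327), higher in 4 of 4 libraries, while it was 0.36 and not called against stele-list nuclei. Without control replicate 2 it was 0.68 (adjusted p = 0.0693). The region upstream of DAR3 changed by -0.21 ± 0.13 and was not called.

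Regions with a peak in fewer libraries are described without a test, in CPM of all peak counts. Between TPS13 and CYP71A20, which are transcribed away from each other, lies chr4:7747918-7748733, which had 25.8, 38.3 and 44.7 CPM in rule nuclei of stress replicate 1, stress replicate 2 and control replicate 2, against 29.8, 32.8 and 34.8 in the other nuclei of these libraries. The difference had no common direction over these libraries. Within PEN1, chr4:8755906-8756810 had 38.3 and 48.3 CPM in rule nuclei of stress replicate 2 and control replicate 2, against 18.5 and 25.7 in the other nuclei of these libraries. Beside AT2G36650, chr2:15358993-15359892 had 25.8, 41.6 and 51.9 CPM in rule nuclei of stress replicate 1, stress replicate 2 and control replicate 2, against 18.8, 18.2 and 24 in the other nuclei of these libraries. At AT1G32970, chr1:11951810-11952725 had 35.5, 21.6 and 37.5 CPM in rule nuclei of stress replicate 1, stress replicate 2 and control replicate 2, against 11.3, 9.79 and 8.68 in the other nuclei of these libraries. Beside DAR3, chr5:26599008-26599861 had 22.6, 23.3 and 38.8 CPM in rule nuclei of stress replicate 1, stress replicate 2 and control replicate 2, against 25.1, 29 and 28.3 in the other nuclei of these libraries. A further region there, chr5:26602404-26603164, had 19.3, 36.6 and 55.5 CPM in rule nuclei of stress replicate 1, stress replicate 2 and control replicate 2, against 45, 43.2 and 58.6 in the other nuclei of these libraries. The region at AT1G32970 was over 2-fold higher in rule nuclei of each library with a peak, and the regions at PEN1 and AT2G36650 were higher in each. Of the DAR3 regions, the first was higher only in control replicate 2 and the second was lower in each. SLAH1 and AT5G62360 had no such region.

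Sequences are shown for 4 of these windows: the largest gain, the gain near ARR11, the PSK2 region and the region between TPS13 and CYP71A20. The windows of the gains are named by the nearest gene start, and whether they act on that gene was not tested. Each is the central 300 bp of its region, read from the RefSeq assembly TAIR10.1 at the TAIR10 coordinates of the files and written 5′ to 3′. Capitals mark the core of the W-box, TTGAC, to which WRKY factors bind, or of the abscisic acid response element, ACGTG, searched on both strands (GTCAA and CACGT). The motifs do not overlap each other in these windows.
Near AT4G20230, chr4:10927821-10928120, plus strand: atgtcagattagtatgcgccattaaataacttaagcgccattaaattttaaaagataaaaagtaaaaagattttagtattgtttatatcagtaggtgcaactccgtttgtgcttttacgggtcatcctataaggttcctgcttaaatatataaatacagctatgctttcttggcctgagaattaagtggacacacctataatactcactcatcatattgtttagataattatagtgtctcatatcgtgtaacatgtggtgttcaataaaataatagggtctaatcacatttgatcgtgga
Near ARR11, chr1:25380395-25380694, plus strand: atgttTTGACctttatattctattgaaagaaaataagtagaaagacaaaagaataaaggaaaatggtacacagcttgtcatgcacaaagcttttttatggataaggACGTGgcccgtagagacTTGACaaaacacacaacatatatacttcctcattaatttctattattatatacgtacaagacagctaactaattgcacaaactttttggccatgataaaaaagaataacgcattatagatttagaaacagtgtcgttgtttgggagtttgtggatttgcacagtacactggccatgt
Upstream of the PSK2 start, chr2:9737060-9737359, plus strand: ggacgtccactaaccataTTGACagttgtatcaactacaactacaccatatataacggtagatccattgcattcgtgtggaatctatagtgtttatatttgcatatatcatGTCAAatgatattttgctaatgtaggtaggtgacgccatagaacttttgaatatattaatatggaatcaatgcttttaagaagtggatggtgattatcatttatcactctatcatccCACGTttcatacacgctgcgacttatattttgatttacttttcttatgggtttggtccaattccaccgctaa
Between TPS13 and CYP71A20, chr4:7748175-7748474, plus strand: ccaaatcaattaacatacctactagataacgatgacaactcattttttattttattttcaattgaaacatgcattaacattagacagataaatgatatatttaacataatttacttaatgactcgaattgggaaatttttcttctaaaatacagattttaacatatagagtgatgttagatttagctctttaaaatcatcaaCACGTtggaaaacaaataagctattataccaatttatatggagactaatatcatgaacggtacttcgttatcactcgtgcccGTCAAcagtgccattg
The window near AT4G20230 held 0 matches, and those near ARR11 and PSK2 each held 2 W-box cores and 1 ABRE core. The window between TPS13 and CYP71A20 held 1 of each. Over the central windows of all 18340 regions, 53.1% held a W-box core, against 41.6% of the 700 more accessible and 72.2% of the 651 less accessible regions. The ABRE core was in 35% of all windows, 33.6% of the more and 35% of the less accessible ones. W-box letters were thus most frequent in the regions that were less accessible in rule nuclei. A match is a description of letters and not of binding.

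Accessibility at gene starts followed RNA for the most raised genes. Regions that hold exactly 1 gene start were grouped by the mean RNA ratio of that gene in rule nuclei over other nuclei. Only genes with a mean of at least 20 CPM in rule nuclei entered, markers apart. Where RNA was at least 4-fold higher, the 77 regions had a median accessibility change of 0.31 (quartiles 0.13 to 0.58). Of these, 21 were called higher and 0 lower, so 27.3% were higher, against 1.35% of all 4594 regions grouped. Where RNA was 2- to 4-fold higher, the median of 236 regions was 0.08, and 8.05% were called higher. Where RNA was within 2-fold, the median of 4217 regions was -0.04, and 0.498% were called higher. The 64 regions with RNA at least 2-fold lower had a median of 0.02, and 4.69% were called lower, against 1.92% of all 4594. The limit of 20 CPM in rule nuclei removed genes that were low or off there. The lower side therefore cannot be set against the higher side. RNA was used by the rule, and the genes are not independent replicates.

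**Figure D5:**
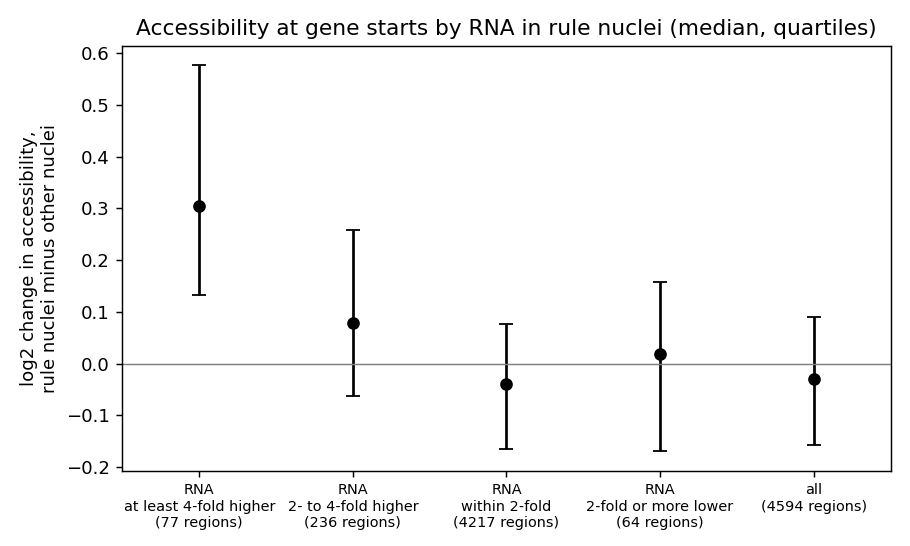
Change in accessibility of regions that hold a gene start, in log2 of rule nuclei over other nuclei, by the RNA ratio of the gene, as medians (points) and quartiles (bars). The median is 0.31 for genes with at least 4-fold higher RNA in rule nuclei and -0.04 for genes within 2-fold.

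Stress and control were compared for accessibility within rule nuclei in the same way. Of 18042 regions tested with edgeR, 0 (0%) passed an adjusted p under 0.05, with 857 at an unadjusted p under 0.05, and DESeq2 also called 0. The rule nuclei carried 620472 and 600698 peak counts in the stress replicates and 558969 and 4430814 in the control replicates. Leaving out control replicate 2 gave 2 calls and leaving out stress replicate 1 gave 1.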

How the data were processed

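RNA and chromatin accessibility were measured in the same nuclei of 4 libraries. The deposited values are raw counts, made by the authors with Cell Ranger ARC 2.0.2 per library against TAIR10, of RNA molecules per gene and of cuts per peak called in that library, while the processing notes also name Seurat 4.3.0. Nuclei with RNA counts over 1000 and under 25000 were kept, and counts were summed per library and class. The markers of the rule come from an earlier clustering of these nuclei, and members and gene lists were chosen with earlier results of these data known. Sums were tested with edgeR 4.0.16 (TMM, filterByExpr, quasi-likelihood, Benjamini-Hochberg) in R 4.3.3, with DESeq2 1.42.0 as an alternative. The fits were tested on simulated data. Peaks of 20 to 10000 bp were merged with bedtools 2.31.1 at 1 bp of overlap. CPM ratios used a pseudocount of 1. Genes were named at an adjusted p under 0.05, a mean of at least 20 CPM and no overlap of the groups, the 10 largest rises and falls, and for the interaction the 5 largest each way, of which 3 positive ones met the rule. For rule against other nuclei, the 20 largest mean ratios with at least 50 CPM and a ratio above 1 in all libraries were named, and for accessibility the 10 largest gains, the 3 largest losses and regions within 2000 bp of a marker. Doublets were kept, since the automatic threshold of Scrublet (scanpy 1.11.5) marked 0 nuclei per library, which means that it failed. One alternative dropped 473 and 338 nuclei in the stress replicates and 83 and 301 in the controls, at an assumed 0.8% per 1000 nuclei. Other alternatives changed the filter, test, rule, depth and libraries. Of 32833 gene identifiers 32548 were found in the TAIR10.1 table, all within 50 bp of the start in the files. Cell labels of the study were not used here.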

Additional observations from a re-analysis of the deposited data

Results flagged for a closer look

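The change under stress differed between rule nuclei and other nuclei for 8 named genes, by the interaction term on the log2 scale (change in rule nuclei minus change in other nuclei). AT1G49570, a class III peroxidase gene, had -3.47 ± 0.44 (SE; edgeR adjusted p = 1.06e-10). AT3G53980, of the lipid transfer protein family, had -2.55 ± 0.39 (SE; edgeR adjusted p = 4.31e-07), GSTF2 had -2.41 ± 0.35 (SE; edgeR adjusted p = 1.92e-08), ATSBT5.2 had -2.33 ± 0.33 (SE; edgeR adjusted p = 1.58e-08) and AT5G43180 had -2.27 ± 0.35 (SE; edgeR adjusted p = 4.31e-07). The positive terms were 1.92 ± 0.45 (SE; edgeR adjusted p = 0.00912) for AT3G22275, 1.72 ± 0.43 (SE; edgeR adjusted p = 0.0187) for PP2-B1, of the phloem protein family, and 1.43 ± 0.37 (SE; edgeR adjusted p = 0.0318) for GXM2, and only these 3 positive calls met the 20 CPM of the naming rule. AT3G22275 had 26.9, 39.7, 36.4 and 87.8 CPM in rule nuclei of stress replicates 1 and 2 and control replicates 1 and 2, against 1.10, 1.35, 2.02 and 14.2 CPM in the other nuclei of the same libraries. Its locus overlaps another annotated gene, so its reads are uncertain. PP2-B1 had 48.3, 34.3, 10.9 and 26.5 CPM in rule nuclei of stress replicates 1 and 2 and control replicates 1 and 2, against 11.9, 11.4, 12.4 and 22.3 CPM in the other nuclei of the same libraries. GXM2 had 75.2, 46.9, 18.2 and 25.3 CPM in rule nuclei of stress replicates 1 and 2 and control replicates 1 and 2, against 55.3, 51.8, 76.7 and 47.3 CPM in the other nuclei of the same libraries. When control replicate 2 was left out, the terms of AT3G22275, PP2-B1 and GXM2 were 0.81, 2.25 and 2.49, and only GXM2 still passed. The transport genes SKOR, PHO1 and NRT1.5 also differed, with -1.92 ± 0.34 (SE; edgeR adjusted p = 2.98e-05), -1.34 ± 0.34 (SE; edgeR adjusted p = 0.0221) and -1.54 ± 0.42 (SE; edgeR adjusted p = 0.0454). Against other nuclei from the stele list, none of the 8 named genes passed, with terms of -1.48 to 2.39 in the same directions.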

How the results depend on the processing

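The counts of calls depended on the processing more than the directions of named genes did. For RNA under stress in rule nuclei, the 312 calls became 183 with DESeq2, 892 with no filter on low counts, 15 with at least 4 markers and 0.2% required, 126 with the same number of nuclei per library, 142 with nuclei thinned to 1000 counts, and, as alternatives chosen after seeing the data, 27 without PSK2 in the rule and 164 with TPS13 or CYP71A20 required. Leaving out 1 library gave 0 to 1597 calls, with 0 without control replicate 2, 1597 without control replicate 1, 113 without stress replicate 1 and 114 without stress replicate 2. Of its calls DESeq2 had 31.7% higher under stress, against 42.0% in the 312, while the share was 80% with at least 4 markers, 66.7% without PSK2 and 54.0% without stress replicate 1. With the replicate number as a block there were 694 calls, but the labels give no pairing, and same-numbered libraries did not deviate together (r = -0.025 over 4674 genes). The interaction gave 102 calls, 33 with DESeq2, 61 with the peak limits added, 7 with 4 markers, 240 against nuclei without any marker, 0 against stele-list nuclei, 9 without PSK2, 0 to 1172 without 1 library, with 48.6% of the 1172 higher against 4.90% of the 102, and 99 with the replicate number by class as a block. Accessibility in rule nuclei gave 1351 calls, 174 with 4 markers, 534 with the same number of nuclei, 198 against stele-list nuclei, 238 without PSK2, 463 to 1159 without 1 library, with 463 without control replicate 2, and 1617 without the library as a block. Of the 1351 calls 51.8% were higher, while it was 24.2% against stele-list nuclei, 21.8% with 4 markers and 29.0% without PSK2. Accessibility under stress gave 0 calls, 0 to 2 without 1 library and 0 with the replicate block. The share of rule nuclei kept its direction under every alternative tried, with log2 ratios of -3.43 to -0.47. The median RNA ratio of 20 named genes moved to 1.88 against stele-list nuclei. The region near DAR3, not called, reversed to 0.032 with the same number of nuclei per library, and the interaction terms of SKOR, PHO1 and NRT1.5 reversed to 0.19, 0.44 and 0.46 against stele-list nuclei. Over all alternatives, 32 named genes called under stress kept their call in 239 fits and lost it in 105. The 11 interaction genes kept it in 85 and lost it in 64. The 15 named regions stayed on their side of the threshold in 193 and lost the call in 16. Fits in which a gene was filtered out or had no adjusted p are counted on neither side. With DESeq2, the 2 largest rises, SWEET3 and AT2G37870, had no adjusted p. Rule nuclei of control replicate 1 gave only 274391 RNA counts. The cause of these moves was not tested.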
